A study of Mus musculus with 27 samples.

Results

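Liver RNA of mice on a low-iron diet was compared with that of mice on a standard-iron diet, gene by gene. The members were all genes whose FPKM averaged 1 or more across the 3 diets of the study, 9548 of the 22552 genes in the deposited RNA table. FPKM, is a fragment count scaled to the length of the transcript and to the size of the library. The low-iron diet (LID) held 0.9 mg of carbonyl iron per kg and feeding began at 3 weeks of age. The standard-iron diet (SID) held 50 mg per kg and feeding began at 6 weeks. Values for a diet rich in iron (HID), with 8.3 g per kg from 6 weeks of age, are given beside them. All mice were male C57B/6J and carried no stated transgene, and each diet had 3 RNA libraries. Low iron and a younger starting age coincide in LID and cannot be told apart, and the labels used here give neither the length of feeding nor the age at collection.

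The liver senses body iron and answers with hepcidin, a peptide hormone encoded by Hamp that lowers iron release into blood by blocking the exporter ferroportin. Iron raises Hamp through bone morphogenetic protein (BMP) ligands, whose receptors act on SMAD transcription factors. When iron is scarce, iron regulatory proteins keep the transferrin receptor mRNA stable, and prolyl hydroxylases, which need iron, are less able to mark hypoxia-inducible factors for breakdown.

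Promoter sequences are shown for genes from 4 stress and signalling pathways described below, since motifs of the factors that act on those pathways are short and can be read directly. They are RefSeq sequences on GRCm38.p6, each the 250 bases before the transcript start, 5′ to 3′ on the strand of the gene. Hamp lies at chr7:30944030-30944279 (minus strand), and capitals mark GGCGCC, a GC-rich word of BMP-response elements.
Hamp: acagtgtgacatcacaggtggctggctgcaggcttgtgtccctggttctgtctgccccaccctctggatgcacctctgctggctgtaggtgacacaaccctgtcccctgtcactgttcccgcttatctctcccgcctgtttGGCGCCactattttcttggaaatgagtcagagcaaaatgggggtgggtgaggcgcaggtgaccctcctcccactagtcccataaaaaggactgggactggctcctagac
Its duplicate Hamp2 lies at chr7:30924182-30924431 (minus strand), and GGCGCC was not in its window.
Hamp2: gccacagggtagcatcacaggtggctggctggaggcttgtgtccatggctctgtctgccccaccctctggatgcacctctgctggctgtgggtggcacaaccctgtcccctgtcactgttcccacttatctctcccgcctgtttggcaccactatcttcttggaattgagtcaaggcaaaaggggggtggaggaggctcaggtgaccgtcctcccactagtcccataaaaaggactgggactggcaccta
Hspa1b, which encodes an inducible HSP70, lies at chr17:34959239-34959488 (minus strand), and capitals mark GAANNTTC, the core of a heat-shock element.
Hspa1b: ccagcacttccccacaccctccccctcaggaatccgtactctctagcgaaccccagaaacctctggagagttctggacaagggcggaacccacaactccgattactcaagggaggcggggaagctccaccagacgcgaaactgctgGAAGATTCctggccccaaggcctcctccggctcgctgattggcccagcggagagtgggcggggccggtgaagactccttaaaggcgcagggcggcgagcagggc
Creld2, which encodes an endoplasmic reticulum (ER) protein, lies at chr15:88819396-88819645 (plus strand), and capitals mark the ER stress element, CCAAT and CCACG with 9 bases of any kind between them, here on the opposite strand.
Creld2: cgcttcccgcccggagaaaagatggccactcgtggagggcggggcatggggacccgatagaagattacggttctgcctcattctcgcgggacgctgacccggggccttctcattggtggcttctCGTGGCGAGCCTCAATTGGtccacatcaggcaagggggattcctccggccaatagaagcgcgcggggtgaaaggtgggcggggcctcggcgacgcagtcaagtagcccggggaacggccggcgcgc
Ankrd37, a target of hypoxia-inducible factors, lies at chr8:45999851-46000100 (minus strand), and capitals mark ACGTG, the hypoxia-response core.
Ankrd37: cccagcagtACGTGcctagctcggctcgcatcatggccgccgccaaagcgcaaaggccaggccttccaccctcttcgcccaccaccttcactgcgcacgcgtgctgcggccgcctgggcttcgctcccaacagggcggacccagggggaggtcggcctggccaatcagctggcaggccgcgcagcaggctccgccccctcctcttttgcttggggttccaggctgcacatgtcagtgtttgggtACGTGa

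Each diet had 1 combined FPKM per gene, so values carry no SD and the read depth is unknown. The listed FPKM summed to 467304 in SID and 420623 in LID. A gene was called when its adjusted p for LID against SID in the authors' deposited table was below 0.05, and "rose" and "fell" are used of called genes. Changes are LID minus SID as log2(FPKM + 1), a scale that shrinks the changes of weakly expressed genes. Over the 9482 tested members the median change was −0.13 as deposited, 6660 of them being lower in LID and 2822 higher, and every log2 change below is relative to that median. For the other 66 members the adjusted p was deposited as 1, and they were not tested.

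Of the 9482 tested genes, 463 were called by the authors' deposited table, a background of 4.88%. LID was higher for 149 genes (1.57%) and lower for 314 (3.31%). Rises were fewer and larger, with a median of 1.07 against −0.64 for the falls. At least 2-fold changes numbered 85 upward and 44 downward on this centred scale. Without centring on the median they numbered 68 and 63, and with 5 added to each FPKM instead of 1, 32 and 28. At an unadjusted p below 0.05, 381 genes were higher and 1235 lower. Of the 149 that rose, 27 were below 1 FPKM in SID and 12 of those were below 1 FPKM in HID too, so these 12 passed the filter only through LID and had to differ. Of the 314 that fell, 7 were below 1 FPKM in LID, and 3 of those were below 1 FPKM in HID too. These 3 passed the filter only through SID and likewise had to differ. The 2 genes nearest the filter were Gm4070, just inside it at a mean of 1.00004 FPKM, and Fam171a1, just outside it, at 0.999968 FPKM.

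**Figure D1:**
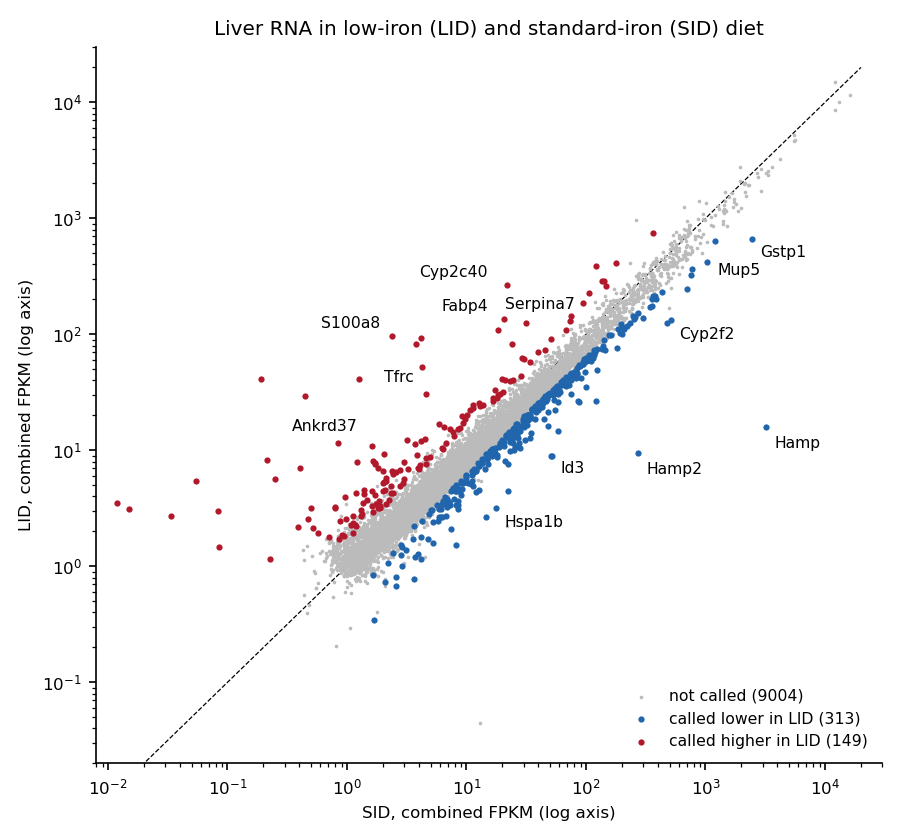
Combined FPKM of each tested gene in SID (horizontal log axis) and LID (vertical log axis), red where called higher in LID, blue where called lower and grey where not called, with a dashed line of equal values. Among called genes Hamp and Hamp2 lie farthest below the line, S100a8 lies far above it, and 16 tested genes listed at 0 in LID or SID, Prap1 among them, are not drawn.

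The share of genes called depended on their level. Among 2756 tested genes with a mean of 1 to 3 FPKM, 1.45% rose and 0.689% fell. Among 993 genes of 30 to 100 FPKM, 2.11% rose and 9.67% fell. At 100 FPKM or more the shares were 1.88% and 5.95% of 639 genes. Falls were thus more frequent among abundant transcripts, while the share of rises varied little from bin to bin. The median change also went from 0.10 in the lowest bin to −0.11 in the highest. For every list below the background is 1.57% higher and 3.31% lower, over genes of all levels. Neither this background nor the median of all tested genes was matched to the level of a list.

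**Figure D2:**
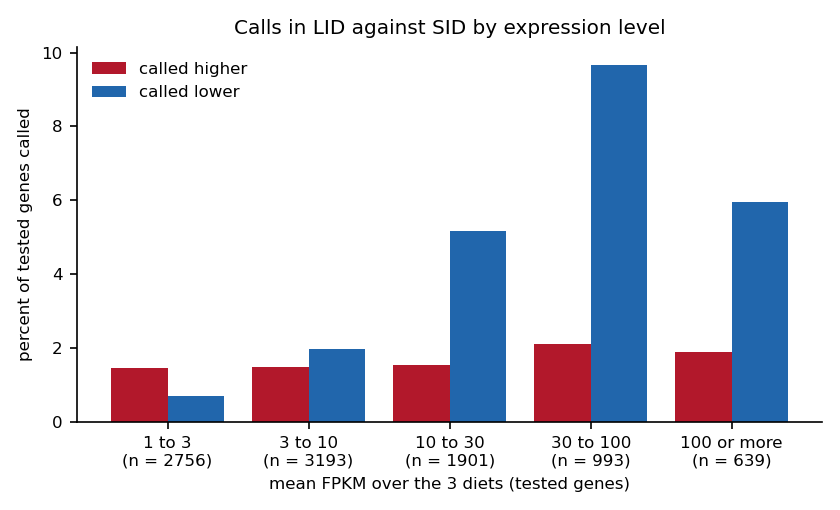
Percent of tested genes called higher (red) or lower (blue) in LID against SID, by mean FPKM over the 3 diets. Blue bars go from 0.689% in the lowest bin to 9.67% at 30 to 100 FPKM, and red bars stay between 1.45% and 2.11%.

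Genes of hepcidin signalling fell. Of the 24 tested genes of the hepcidin and BMP-SMAD list, 7 fell and 0 rose, against a background of 3.31% lower. Their median was −0.24. Hamp stood at 3200 FPKM in SID, 15.8 in LID and 6028 in HID, a change of −7.44 that was the largest among the called genes. Hamp2 stood at 275, 9.42 and 2660 FPKM (−4.59). For both the authors' deposited table lists an adjusted p of 0. LID was the lowest diet and HID the highest for each of them.

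The remaining 5 calls were Id1, Id2, Id3 and Atoh8, targets of BMP signalling, and the SMAD gene Smad9. Id3, an inhibitor of basic helix-loop-helix factors, went from 52.0 to 8.90 FPKM (−2.29), and HID had 81.0. Id2, of the same family, went from 101 to 35.2 FPKM (HID 145), and Atoh8, a transcription factor that acts on Hamp, from 7.45 to 2.08 (HID 23.3). Id1 went from 8.54 to 3.65 FPKM and was at 73.6 in HID. LID was the lowest diet for all 4 of these targets. Smad9 fell from 1.66 to 0.840 FPKM (HID 5.78), the smallest called fall at −0.40, and was named after its value was seen. The ligand Bmp6 stood at 0.803 FPKM in SID, 0.205 in LID and 2.51 in HID, with an adjusted p of 0.0583 for LID against SID in the authors' deposited table. The inhibitory SMAD gene Smad7 stood at 1.66, 0.841 and 6.93 FPKM (adjusted p 0.0532 in the authors' deposited table). Both missed the threshold, while LID was the lowest diet for each. Smad6, Tmprss6, which encodes a protease that dampens the signal, and the coreceptor gene Hfe2 were not called.

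In these promoters GGCGCC, which reads the same on both strands, was found in 7 of the 18 list genes with a RefSeq window (38.9%) and in 24.6% of the 6870 tested genes with one. Of the promoters of called-lower genes 23.8% held it. Among called list members it was in 3 of 6, namely Hamp, Id2 and Smad9. Hamp and Hamp2 differed in this word and both fell.

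Of 19 tested genes for iron uptake, storage and export, 1 rose and 0 fell (median −0.16). That gene was Tfrc, the transferrin receptor, at 4.56 FPKM in SID, 30.4 in LID and 1.85 in HID (2.63), so its 3 values ran opposite to those of Hamp. Slc40a1, which encodes ferroportin, stood at 35.9, 29.2 and 79.95 FPKM. The ferritin light-chain gene Ftl1 stood at 2892, 1713 and 4847 FPKM, and the heavy-chain gene Fth1 at 2122, 1694 and 1504. The importer gene Slc11a2 stood at 5.55, 6.33 and 2.15 FPKM. None of these 4 was called in LID against SID, the authors' deposited table giving adjusted p of 0.612, 0.337, 0.814 and 0.852. Trf, which encodes transferrin, was listed at 0 in LID and at 4825 FPKM in SID, and was not tested. Alb, listed at 0 in all 3 diets, is flagged in the authors' deposited table as having too many fragments to quantify. Trf is not, but the table has 1 flag per gene, which follows HID against SID. Camp, flagged there as not tested, has an adjusted p of 0.00529 for LID against SID in that table. Trf has a usable adjusted p only for HID against SID (0.492 in the authors' deposited table), so its flag does not cover LID. Whether the 0 of Trf is a measurement cannot be read from that flag, and no fold is given for it.

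Haem genes gave 2 falls (10.5%) and 0 rises among 19, against 3.31% lower over all tested genes and 9.67% among those of 30 to 100 FPKM. Alas1, the rate-limiting enzyme of haem synthesis in liver, went from 95.5 to 59.2 FPKM (−0.55) with HID at 60.5. Abcb6, a porphyrin transporter, went from 16.2 to 9.54 FPKM (−0.57). Among 23 iron-sulphur cluster assembly genes only Glrx5, a mitochondrial glutaredoxin that carries clusters, was called, from 103 to 59.8 FPKM (−0.64, adjusted p 0.00553 in the authors' deposited table). The 33 respiratory chain and citrate cycle genes had 0 calls, with 7 lower and 0 higher at an unadjusted p below 0.05 in the authors' deposited table, and a median of −0.10. The 30 iron-dependent dioxygenases also had 0 calls, with 4 lower and 2 higher at that unadjusted level (median −0.02, of the other sign under 3 of 5 scalings).

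**Figure D3:**
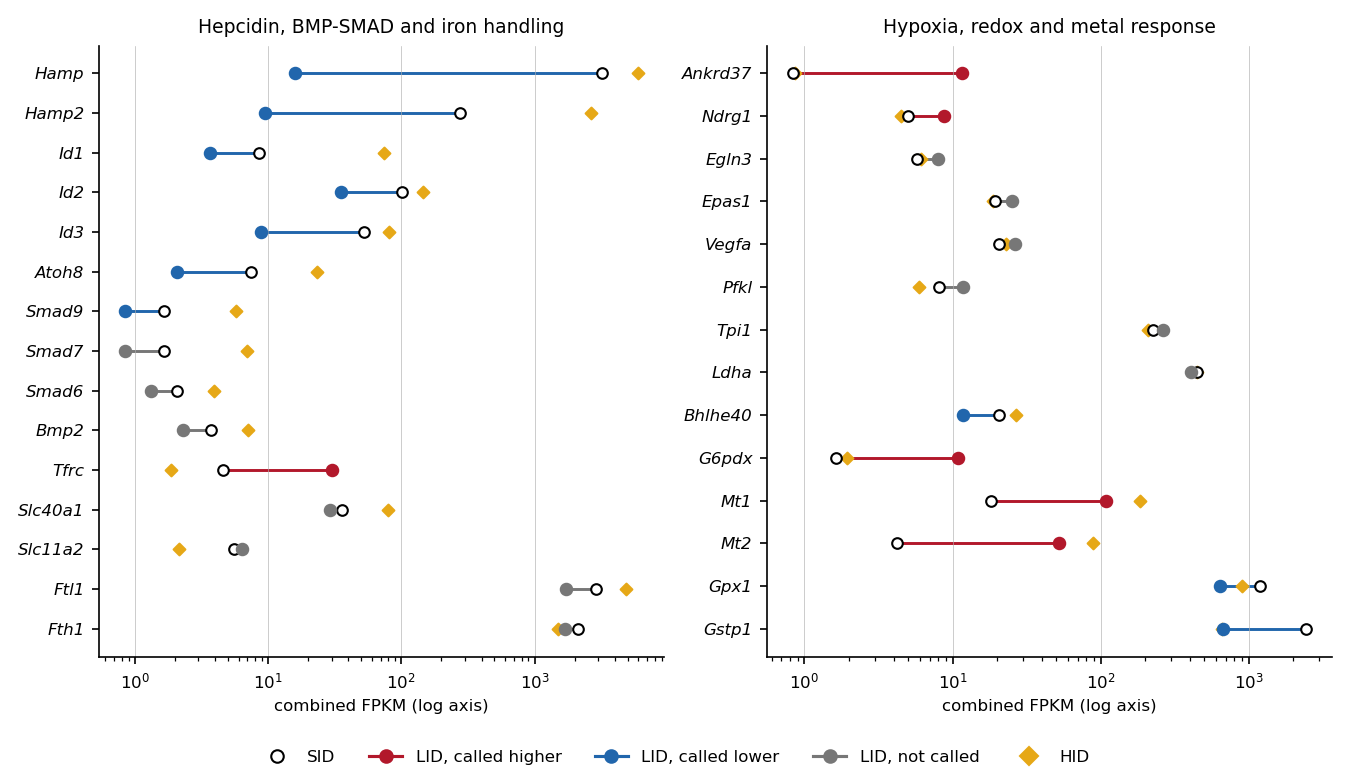
Combined FPKM (log axis) in SID (open circle), LID (filled circle, red if called higher, blue if called lower, grey if not called) and HID (yellow diamond), for iron genes (left) and hypoxia, redox and metal genes (right). Hamp spans 15.8 to 6028 FPKM across the diets, Tfrc runs the other way, and Ankrd37, which passed the filter only through LID, is lowest in SID.

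Most hypoxia targets lay on the upper side. Of 27 tested hypoxia and glycolysis genes, 24 lay above the median of all tested genes and the list median was 0.32, but 3 rose and 1 fell, the rises being 1 when at least 1 FPKM was required in both diets. Ankrd37 had 0.834 FPKM in SID, 11.5 in LID and 0.861 in HID (2.90), and since it was under 1 FPKM in SID and HID, it passed the filter only through LID and had to differ. Ndrg1, a stress-responsive gene, rose from 4.997 to 8.74 FPKM, and Bhlhe40, a clock-linked repressor, fell from 20.7 to 11.8. The oxygen sensor gene Egln3 (5.77 to 7.95 FPKM) and Vegfa (20.7 to 26.6) were not called, and Epo, below the filter, was listed at 0 in SID and 0.606 in LID. On either strand ACGTG was in 71.4% of the 21 list promoters and in 30.1% of all tested ones. Of the promoters of called-higher genes 21.6% held it. Of called list genes only Ankrd37 had a window, which held it at −241 and −6 from the start.

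Metallothioneins rose, and they also had high values in HID. Mt1 stood at 18.3 FPKM in SID, 109 in LID and 184 in HID (2.65). Mt2 stood at 4.22, 52.6 and 89.0 FPKM (3.49). These metal-binding proteins were lowest in SID, and the adjusted p for HID against LID was 0.126 for each in the authors' deposited table. Slc39a4, a zinc importer gene, was the only other call among 13 genes, from 6.39 to 10.3 FPKM. The Mt2 window is at chr8:94172368-94172617 (plus strand), with capitals on TGCGCNC, the metal-response core.
Mt2: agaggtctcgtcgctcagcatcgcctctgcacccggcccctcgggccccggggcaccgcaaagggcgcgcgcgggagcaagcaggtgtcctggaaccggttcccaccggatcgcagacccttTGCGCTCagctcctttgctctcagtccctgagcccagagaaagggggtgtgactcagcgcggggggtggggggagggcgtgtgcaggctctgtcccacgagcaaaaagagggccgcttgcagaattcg
On either strand this word was in 58.3% of 12 list promoters and in both Mt1 and Mt2, against 30.1% of tested promoters. Of the promoters of called-higher genes 19.6% held it. On the given strand alone the list share was 25%.

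Redox genes lay mostly on the lower side. The oxidative-stress list had 5 falls (18.5%) and 1 rise (3.7%) among 27, against backgrounds of 3.31% and 1.57%. The largest share of falls in a bin by level was 9.67%, at 30 to 100 FPKM. Of the 27 genes, 21 were below the median of all tested genes, and the list median was −0.28. The rise was Gstm3, a glutathione transferase gene, from 34.0 to 58.2 FPKM (0.89). Gpx1, glutathione peroxidase 1, fell from 1199 to 637 FPKM (HID 895, adjusted p 0.0446 in the authors' deposited table). Ephx1, a microsomal epoxide hydrolase, fell from 124 to 49.7 FPKM (−1.17) and was at 110 in HID. Gstp1, a glutathione transferase, stood at 2448 FPKM in SID, 669 in LID and 655 in HID (−1.74). It shares near-identical sequence with Gstp2 (480, 125 and 141 FPKM), so the split between them is uncertain. Outside that list, on the glucose list, G6pdx, the NADPH-forming entry enzyme of the pentose phosphate route, rose from 1.62 to 10.8 FPKM (2.31) with HID at 1.94. The p53-linked genes Btg2 (3.21 to 12.3 FPKM) and Cdkn1a (6.49 to 15.9) rose as well, 2 of 12 on their list. The antioxidant genes Sod1 and Cat were not called.

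Chaperones of the cytosol fell, 10 of 25 with 0 higher, and 23 of the 25 were below the median of all tested genes. The list median was −0.53. Hspa1b stood at 17.6 FPKM in SID, 3.15 in LID and 4.24 in HID (−2.03), and its near-identical neighbour Hspa1a fell too. Hsph1, an HSP110 exchange factor, stood at 28.2, 10.5 and 10.01 FPKM. The co-chaperone gene Bag3 stood at 21.1, 8.10 and 11.9 FPKM, and the HSP40 gene Dnajb1 at 15.2, 7.62 and 6.86. In all of these the SID value stood apart from the other two diets. Hspb8, a small heat-shock protein gene named after its value was seen, did not share this: it fell from 115 to 62.5 FPKM with HID at 167. The mitochondrial chaperone gene Hspd1 was not called (183 and 164 FPKM).

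The word GAANNTTC was in 12 of 20 list promoters (60%) and in 7 of the 10 called ones, including the Hspa1b window printed above at −104. Of all tested promoters 7.45% held it, and of the promoters of called-lower genes 7.93%.

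ER chaperones and the unfolded protein response gave 9 falls and 0 rises among 27 (median −0.42). Creld2 stood at 47.6 FPKM in SID, 16.3 in LID and 12.5 in HID (−1.35). Herpud1, a component of ER-associated degradation, stood at 180, 76.8 and 87.3 FPKM, and Hyou1, an ER HSP70-like chaperone, at 37.8, 18.5 and 13.8. Here too SID was the highest of the 3 diets. Hspa5, the main ER HSP70, was at 488 FPKM in SID and 311 in LID and was not called. The ER stress element was in 8 of 22 list promoters and 2 of 7 called ones (Creld2 and Syvn1), against 0.204% of all tested promoters. Of the promoters of called-lower genes 0.881% held it. On the given strand alone it was in 6 of 22 and 1 of 7. The 15 targets of ATF4, which mark the amino acid response, had 0 calls, with 4 lower and 1 higher at an unadjusted p below 0.05 in the authors' deposited table. Proteasome genes (28 tested, median 0.04, negative under 2 of 5 scalings) had 0 calls and 1 lower at that level, and ribosomal protein genes (40 tested, median 0.07, negative without centring) had 0 calls and 2 lower.

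**Figure D4:**
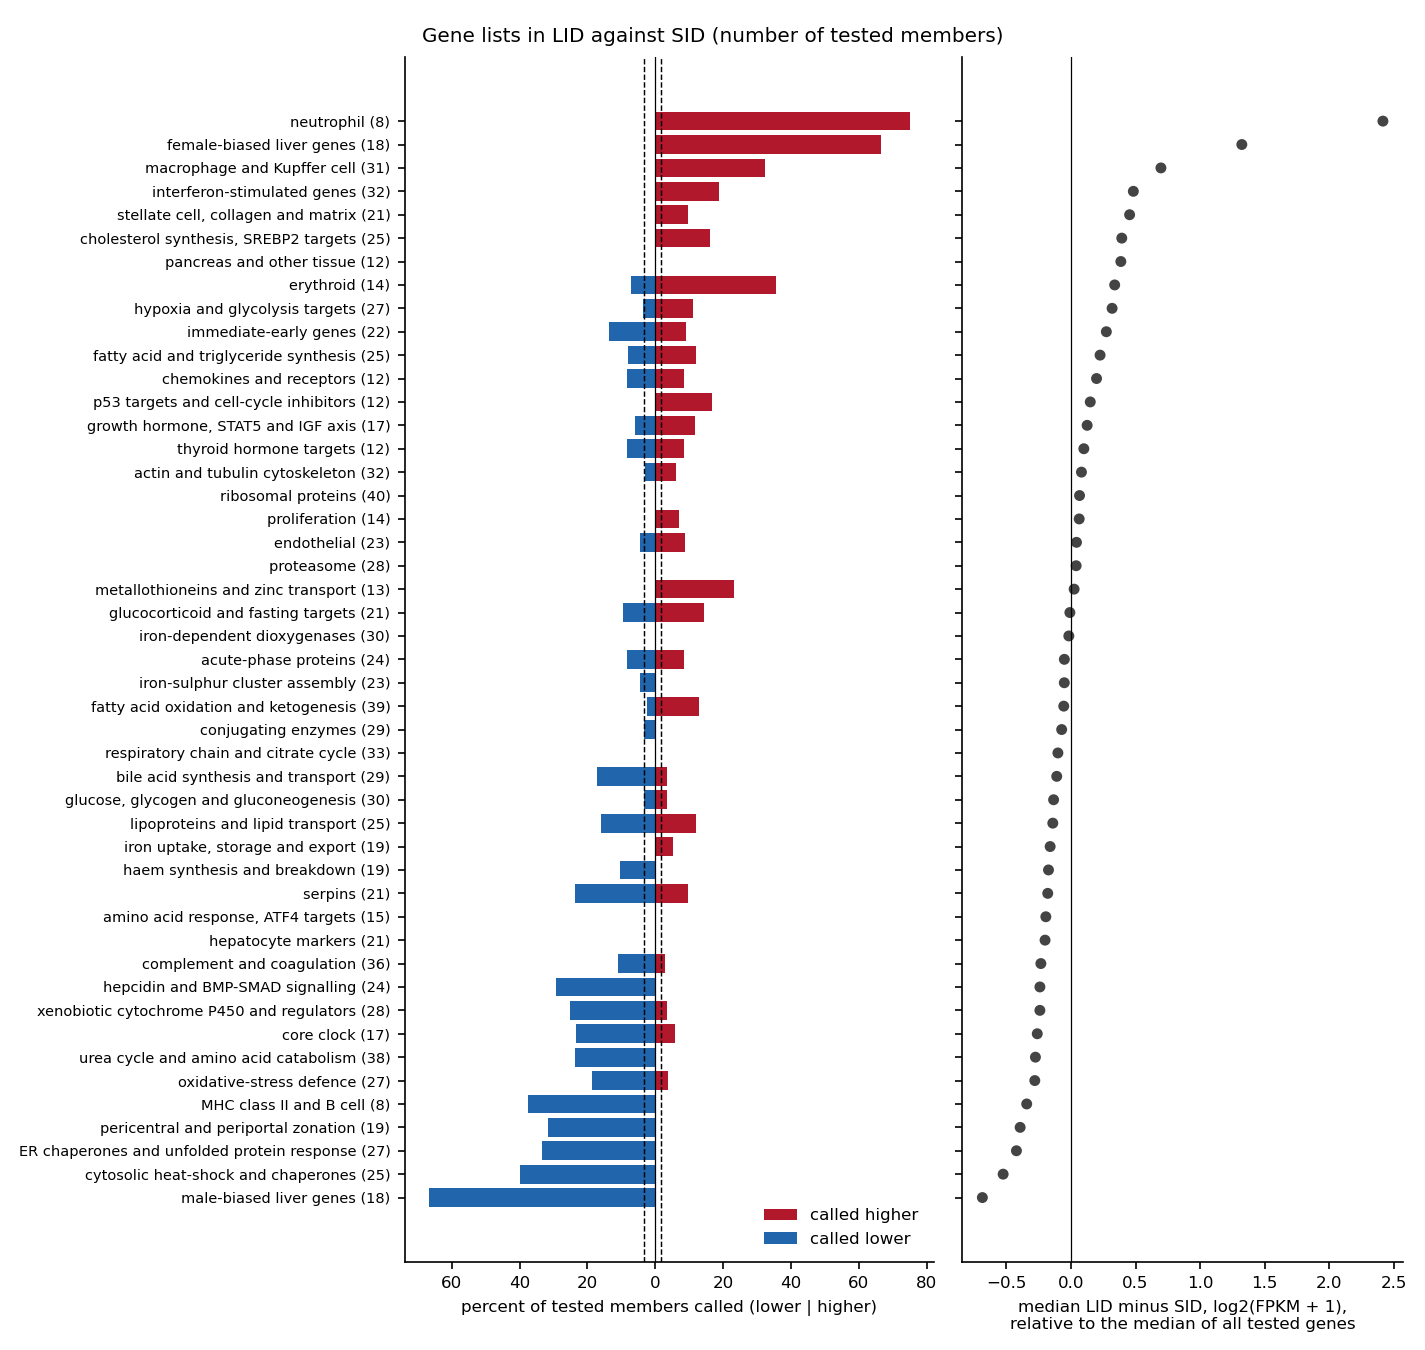
Gene lists with at least 8 tested members, ordered by median change. Left, percent of members called lower (blue) or higher (red), with dashed lines at the background of 3.31% and 1.57%; right, median log2 change relative to all tested genes, which runs from −0.69 for male-biased genes to 2.41 for neutrophil genes.

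Genes of amino acid breakdown fell. Of 38 urea cycle and amino acid catabolism genes, 9 fell, 0 rose, and 31 were below the median of all tested genes (list median −0.28). At a threshold of 0.01 the count was 1, and the falls were smaller than 2-fold. Sds, serine dehydratase, stood at 83.8 FPKM in SID, 45.4 in LID and 154 in HID. Hal, histidine ammonia-lyase, stood at 57.5, 35.0 and 87.1 FPKM, so both were lowest in LID and highest in HID. Gldc, of the glycine cleavage system, fell from 30.2 to 17.6 FPKM, and the liver glutaminase gene Gls2 from 116 to 65.8. Asl, argininosuccinate lyase, fell from 250 to 143 FPKM. Its pathway neighbours Cps1 (294 to 325 FPKM), Ass1 (1408 to 1156) and Arg1 (1118 to 1034) were not called and are named after their values were seen. Csad, which makes the taurine precursor, fell from 94.3 to 55.3 FPKM with HID lower still at 31.4.

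Zonation genes fell in 6 of 19 cases with 0 higher (median −0.39), and in 3 at a threshold of 0.01. Cyp2f2, a cytochrome P450 of hepatocytes around the portal vein, stood at 510 FPKM in SID, 133 in LID and 284 in HID (−1.80). Hsd17b13, a lipid-droplet protein, stood at 346, 171 and 601 FPKM. Sds, Gls2 and Hal, given above, are also on this list and are periportal. Rhbg, an ammonia transporter gene of hepatocytes around the central vein, fell from 2.55 to 0.809 FPKM. Other central-vein genes were not called: Cyp2e1 stood at 2192 and 1554 FPKM (adjusted p 0.769 in the authors' deposited table) and Glul, glutamine synthetase, at 228 and 158 (0.361). Whether portal and central genes differed from each other was not tested. Hepatocyte markers had 0 calls among 21, with 2 lower and 0 higher at an unadjusted p below 0.05 in the authors' deposited table (median −0.20). They summed to 72491 FPKM in SID and 61595 in LID, with 3 of the list, Alb among them, listed at 0.

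**Figure D5:**
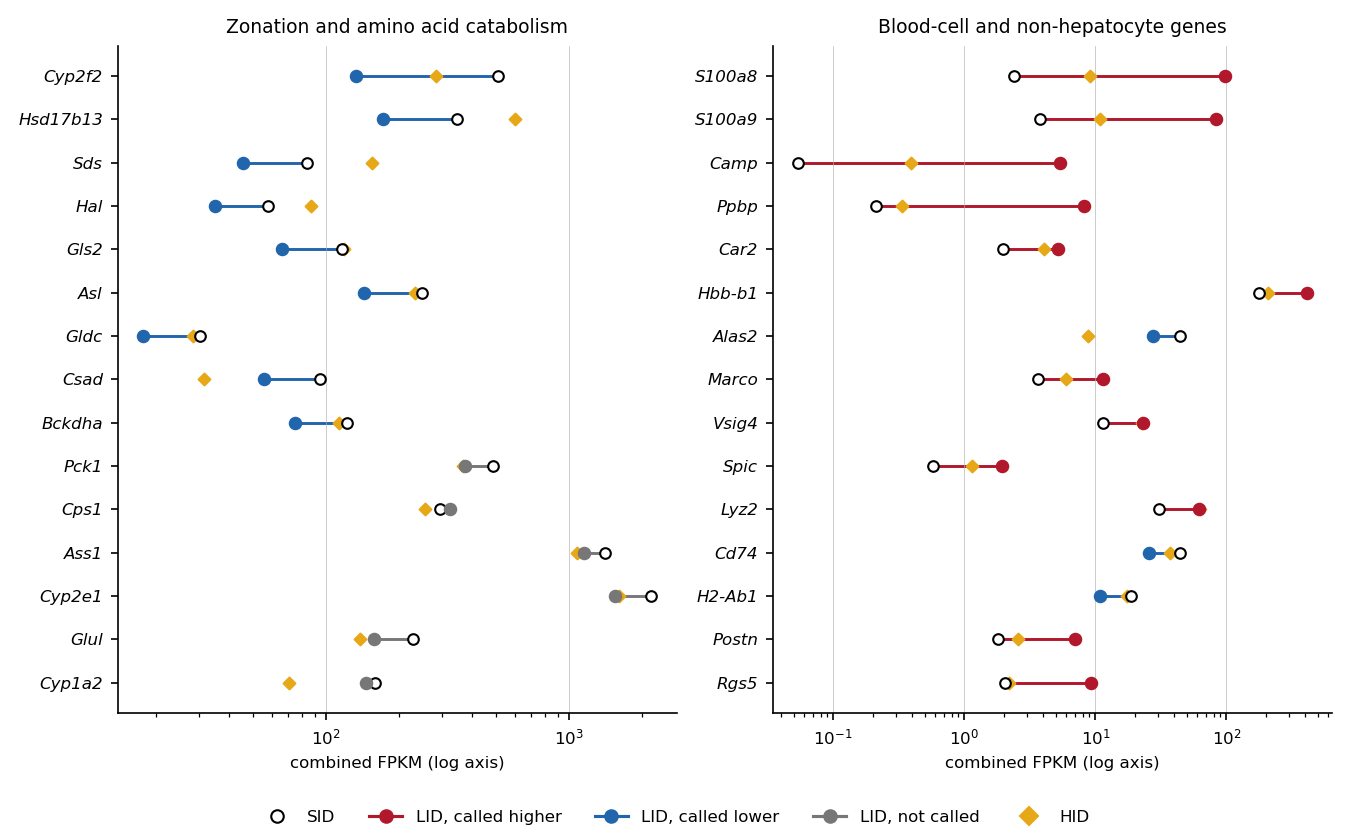
Combined FPKM (log axis) in SID (open circle), LID (filled circle, coloured by its call) and HID (yellow diamond), for zonation and amino acid genes (left) and genes of blood and other non-hepatocyte cells (right). Cyp2f2 falls from 510 to 133 FPKM while Cyp2e1 is not called, and S100a8 is higher in LID than in either other diet, as are Camp and Ppbp, which passed the filter only through LID.

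Genes of lipoproteins and lipid transport moved both ways, with 3 rises and 4 falls among 25 (median −0.14). Fabp4, a gene outside that list and typical of adipocytes, macrophages and capillary endothelium, stood at 20.7 FPKM in SID, 136 in LID and 17.8 in HID (2.79). Fabp5 stood at 122, 388 and 178 FPKM (1.79), and the genes are neighbours among tested genes in RefSeq order. LID was the highest diet for both, while the adipocyte hormone gene Adipoq was at 0.00966 FPKM in SID and 0.0297 in LID. Lpl, lipoprotein lipase, rose from 2.76 to 6.77 FPKM, and Cd36, a fatty acid transporter gene, from 10.2 to 20.1 (HID 34.5).

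Among the falls, Gm6484, a RefSeq synonym of Angptl8, which encodes an inhibitor of lipoprotein lipase, stood at 120 FPKM in SID, 26.4 in LID and 119 in HID (−2.02). Apoa5, an apolipoprotein that promotes triglyceride clearance, stood at 761, 324 and 1093 FPKM (adjusted p 0.00452 in the authors' deposited table). Creb3l3, a transcription factor of triglyceride metabolism, fell from 89.6 to 53.6 FPKM with HID at 89.5. LID was the lowest diet for each. Lcat, which esterifies cholesterol on HDL, fell from 221 to 118 FPKM. The HDL protein gene Apoa1 was not called (12243 and 8602 FPKM).

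Most cholesterol synthesis genes lay on the upper side: 4 of 25 rose (1 at a threshold of 0.01), 0 fell, 21 lay above the median of all tested genes and the list median was 0.39. Lss, lanosterol synthase, rose from 8.41 to 15.2 FPKM (HID 7.89) and Sc4mol, the methylsterol oxidase Msmo1, from 73.9 to 129. Fatty acid and triglyceride synthesis had 3 rises, among them the acyltransferase gene Gpam (17.2 to 33.2 FPKM), and 2 falls among 25. Fatty acid oxidation had 5 rises (12.8%) and 1 fall (2.56%) among 39. Pdk4, a kinase that spares glucose, rose from 4.50 to 12.4 FPKM (HID 4.09), whereas Cpt1a, which admits fatty acids to mitochondria, was not called (45.5 and 42.1 FPKM). Bile acid genes gave 5 falls (17.2%) and 1 rise (3.45%) among 29. Cyp8b1, the sterol 12-alpha-hydroxylase, fell from 200 to 100 FPKM, while the rate-limiting Cyp7a1 was not called (18.2 and 14.3 FPKM).

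Genes that differ between male and female mouse liver moved apart in these males. Of 18 male-biased genes 12 fell and 0 rose (median −0.69), and of 18 female-biased genes 12 rose and 0 fell (median 1.32). Cyp2b9 stood at 0.443 FPKM in SID, 29.1 in LID and 150 in HID (4.52). Cyp17a1, a steroid hydroxylase, stood at 24.1, 82.8 and 36.0 FPKM. Cyp2c40 stood at 21.6, 265 and 44.5 FPKM, and its paralog Cyp2c69 at 4.19, 93.4 and 6.32. LID was the highest diet for Cyp17a1 and these Cyp2c genes, and HID for Cyp2b9. With genes of at least 1 FPKM in both diets, the female-biased count was 7.

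Among male-biased genes Cyp2d9 stood at 698 FPKM in SID, 248 in LID and 139 in HID (−1.36). Selenbp2, a selenium-binding protein gene, stood at 85.6, 26.7 and 36.3 FPKM. Mup5, a major urinary protein gene, stood at 1035, 420 and 0.342 FPKM, and Mup4 and Mup6 also fell. Not every male-biased gene moved: Hsd3b5 (136 and 119 FPKM) and Slco1a1 (156 and 167 FPKM) were not called in LID, and HID held 3.64 and 12.5 FPKM. The urinary protein and Cyp2c genes have close copies that share reads, so their single values are uncertain.

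The growth hormone, STAT5 and IGF list had 2 rises (11.8%) and 1 fall (5.88%) among 17 (median 0.12, negative without centring). Igfbp1, an insulin-repressed binding protein of growth factors, stood at 105 FPKM in SID, 226 in LID and 82.0 in HID. Prlr, the prolactin receptor, rose from 4.01 to 6.89 FPKM, and Igfals, which stabilises circulating IGF1, fell from 30.04 to 15.8 (HID 14.6). Igf1 (104 and 103 FPKM) and the receptor gene Ghr (162 and 129) were not called. Serpina7, the carrier of thyroid hormone in blood, stood at 31.6, 124 and 45.6 FPKM (2.07) and was the only rise among 12 thyroid targets. Drug-metabolising P450 genes had 7 falls and 1 rise among 28, with Cyp2d26 at 357, 177 and 349 FPKM.

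Some neutrophil and erythroid genes rose in LID. Bulk RNA cannot tell fewer cells of a type from less RNA per cell, nor more cells from more RNA. Of 8 tested neutrophil genes 6 rose, 4 of which were under 1 FPKM in SID and HID, so requiring 1 FPKM in both diets left 2. S100a8, which encodes a subunit of calprotectin, stood at 2.38 FPKM in SID, 96.7 in LID and 9.15 in HID (4.99). Summed over the list, the level was 15.3 FPKM in SID, 213 in LID and 43.6 in HID, and 17 members were below the filter. The granule gene Mpo was listed at 0 in SID and 0.289 FPKM in LID. Ppbp, a platelet chemokine, stood at 0.213, 8.18 and 0.335 FPKM, the only call among 3 tested platelet genes. It too passed the filter only through LID and had to differ. The platelet list summed to 9.27, 25.97 and 16.9 FPKM.

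Erythroid genes had 5 rises and 1 fall among 14 and summed to 860 FPKM in SID, 1209 in LID and 871 in HID. Most of each sum came from the globin genes Hba-a1 and Hbb-b1. Car2, a carbonic anhydrase gene, stood at 1.98, 5.19 and 4.06 FPKM. Hbb-b1, a beta-globin gene with a close copy, rose from 177 to 408 FPKM, but the alpha-globin gene Hba-a1 was not called (518 and 614). Alas2, the erythroid counterpart of Alas1, was the 1 fall, at 44.0, 27.4 and 8.71 FPKM. Hbb-b2, the copy of Hbb-b1, had the lowest change of the list (−3.61), at 12.96, 0.0444 and 9.10 FPKM, and was not called (adjusted p 0.961 in the authors' deposited table). The split of reads between the 2 copies is uncertain. Tfrc is on this list too. With a mean of at least 5 FPKM the count of rises was 2. Gata1, which defines erythroid precursors, was at 0.00723 FPKM in SID and 0.139 in LID. The part of these cells in the changes of Tfrc and other genes was not tested.

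Macrophage and Kupffer cell genes rose in 10 of 31 cases with 0 lower (median 0.70), and in 4 at a threshold of 0.01. Marco, a scavenger receptor gene, stood at 3.68 FPKM in SID, 11.4 in LID and 5.96 in HID. Vsig4 stood at 11.4, 23.2 and 22.7 FPKM, and lysozyme Lyz2 at 30.4, 61.4 and 63.3. The list summed to 463 FPKM in SID, 646 in LID and 691 in HID. That sum includes the ferroportin gene Slc40a1, at 35.9, 29.2 and 79.95 FPKM. The difference between LID and HID in Slc40a1 alone exceeds that in the sum. Kupffer cell markers Clec4f (24.9 and 37.5 FPKM) and Cd5l (25.5 and 38.3) were not called. Interferon-stimulated genes rose in 6 of 32 cases with 0 lower (median 0.48), and in 1 at a threshold of 0.01, with Isg15 going from 9.32 to 17.1 FPKM (HID 45.1).

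Some class II antigen presentation genes fell. The class II and B cell list had 3 falls among 8 (37.5%, against a background of 3.31%), and 0 at a threshold of 0.01. Cd74, the class II invariant chain, fell from 43.8 to 25.5 FPKM and H2-Ab1 from 18.8 to 10.8. H2-Aa (22.1 and 14.2 FPKM), H2-DMa (2.10 and 1.75) and Ly6d (2.14 and 5.23), on the same list, were not called. The list summed to 103 FPKM in SID, 68.6 in LID and 105 in HID. The B cell gene Ms4a1 was at 0.179 FPKM in SID and 0.290 in LID. Stellate cell and matrix genes had 2 rises (9.52%) among 21 (median 0.45, sums of 260, 285 and 300 FPKM in SID, LID and HID). Endothelial genes had 2 rises (8.7%) and 1 fall (4.35%) among 23 (sums of 241, 213 and 252). Cholangiocyte genes had 1 rise among 7 (sums of 52.8, 55.8 and 82.2 FPKM), which was Cd24a. T and NK genes had 0 calls among 4 (0 lower and 2 higher at an unadjusted p below 0.05 in the authors' deposited table; sums of 9.43, 10.9 and 13.7 FPKM). Pancreas and other tissue genes had 0 calls among 12 (1 higher and 1 lower at that level in the authors' deposited table), and their sum was 37.0 FPKM in SID, 45.2 in LID and 21.4 in HID. The part of any of these cells in the results was not tested.

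Called genes often lay beside others called the same way. Among 8512 tested genes placed in RefSeq order, 15 neighbouring pairs both rose, 36 both fell and 9 moved apart. Of 134 placed genes that rose, 21.6% had a risen neighbour, against 2.8% of the other genes. Of 288 that fell, 22.9% had a fallen neighbour, against 5.95%. Many pairs were duplicated genes, such as Mt1 and Mt2, S100a8 and S100a9, Ces3a and Ces3b, or Inhbe and Inhbc. Others were not: Hamp2 and Hamp were followed by Usf2, a transcription factor gene that fell from 25.0 to 15.7 FPKM, and Lsr, a lipoprotein receptor gene that fell from 75.1 to 46.2. Both were singled out after their values were seen.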

How the data were processed

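Liver RNA libraries, 3 per diet, were made with a TruSeq kit from Trizol RNA per the labels' protocols. TopHat and Cufflinks 2.2.1 on mm9 are named in the submitters' processing notes. The authors deposited 1 combined FPKM value per gene and diet. No header names that unit, which was inferred from Cufflinks and from the range of the values. Per the file headers the columns are LFE, NORM and GFE, and GFE was taken as HID by elimination. Each contrast also has a deposited p-value and an adjusted one from the authors, by a test not given in the sources used here. Labels state 3 male mice per group, but no values per library were used, so the p-values could not be checked against the spread between mice.

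The limma fit first planned needs values per library and could not be made. Instead, members with a mean of at least 1 FPKM and a deposited adjusted p below 1 were tested, and called below 0.05. Changes are log2(FPKM + 1), centred on the median of tested genes. Lists (51 lists, 1228 genes found in the table) are described by counts and medians only. The members and lists were chosen with earlier results of these data known. Named genes were the 15 largest called changes in each direction, the 10 called genes highest in SID and the 10 highest in LID, up to 6 called and 3 uncalled members of each list, 12 iron genes, members listed at 0 in LID or SID with at least 10 FPKM in the other, and genes with a printed promoter. Genes named outside this rule to illustrate a list were chosen after their values were seen, and some genes that the rule named are left out. Motifs were searched on both strands of RefSeq GRCm38.p6 windows from 250 bases before to 50 after the start, matched by symbol. Pandas 2.3.3 and NumPy 2.4.6 were used, and the code was tested on simulated data. Alternatives were other filters, thresholds, pseudocounts and scalings, and 1 strand for motifs.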

Additional observations from a re-analysis of the deposited data

How the results depend on the processing

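A threshold of 0.01 left 248 genes called by the authors' deposited table, 93 higher and 155 lower, and the main threshold with a 2-fold change left 129, 85 higher and 44 lower. A mean of at least 5 FPKM left 79 higher calls and 277 lower. Without a filter 186 rose and 323 fell, and with 1 FPKM in both diets 122 and 307. The share of calls that were higher was 32.2%, and 22.2% at 5 FPKM, 36.5% without a filter, 37.5% at 0.01 and 65.9% with the 2-fold change. The split with a 2-fold change was 68 higher and 63 lower without centring, 93 and 41 with upper-quartile scaling, 97 and 38 with summed-FPKM scaling, 114 and 62 with a pseudocount of 0.1, and 32 and 28 with one of 5. Adjustment within the contrast gave the same 463 genes. Of the 163 called genes that the rule named 0 changed sign under these 5 scalings, while 27 of the 148 named genes not called did under at least 1, and 14 of 51 list medians, all near 0, did under at least 1. No paired analysis was possible because each diet had 1 combined value, which also barred leaving out a replicate. Depth is unknown, so low genes carry an unknown counting error.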

Other observations

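Some called genes on none of the gene lists stood out by name, and were singled out after their values were seen. Rgs5, a regulator of G-protein signalling, stood at 2.03 FPKM in SID, 9.32 in LID and 2.202 in HID, a relative log2 change of 1.90. The channel subunit genes Kcnj8 (0.969 to 3.96 FPKM) and Abcc9 (1.33 to 2.84 FPKM), neighbours among tested genes in RefSeq order, rose as well. Postn, which encodes a matrix protein, also rose, from 1.82 to 7.02. The contractile-cell genes Acta2 (1.03 and 1.95 FPKM), Tagln (3.13 and 4.34 FPKM) and Des (1.81 and 1.74 FPKM) were not called. Nt5e, an ectonucleotidase that makes adenosine, rose from 1.71 to 7.72 FPKM. Lepr, the leptin receptor, rose from 3.25 to 6.94 FPKM and was at 9.87 in HID, and Pkm2, a pyruvate kinase, rose from 5.89 to 17.0.

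Liver transcription factors were among the falls. Foxa1 (7.48 to 4.48 FPKM), Foxa2 (16.8 to 10.3 FPKM) and Foxa3 (26.7 to 13.5 FPKM) all fell, as did Hhex (44.0 to 25.9 FPKM), whereas Hnf4a (107 and 74.97 FPKM) and Cebpa (129 and 86.4 FPKM) were not called. The activin subunit genes Inhbc (25.5 to 10.7 FPKM) and Inhbe (11.4 to 4.90 FPKM) fell together. Of the carboxylesterase genes Ces3a fell from 778 to 364 FPKM and Ces2c from 4.72 to 1.73, whereas Ces1d (301 and 210 FPKM) and Ces2a (60.5 and 43.6 FPKM) were not called. Slc25a39, a mitochondrial carrier gene, fell from 202 to 116 FPKM. Apoe and Mup20, listed at 0 in SID, carry the status HIDATA in the authors' deposited table, by which Cufflinks marks a locus with too many fragments to quantify. Their 0 is therefore no measurement, and they were not tested.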
